A study of Mus musculus with 15 samples.

Results

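The genes described here are 10 nuclear receptors of the intestinal epithelium other than the bile acid receptor FXR: Hnf4a, Hnf4g, Nr5a2, Rxra, Rxrb, Ppara, Ppard, Pparg, Rara and Nr2f6. They were chosen by name, with no threshold on measured values but with earlier results of these data known, from 23420 genes counted in mouse ileal organoids, and all 10 were among the 13159 genes with enough counts to be tested. Organoids are epithelial cultures grown from intestinal crypts, here from the ileum of C57BL/6 mice at passage 2. RNA was sequenced from 15 libraries in 5 groups of 3 (a, b and c). The groups H10, H90, M10 and M90 received a pool of bile acids modelled on human (H) or mouse (M) bile, with 10% or 90% of its bile acids 12α-hydroxylated, and the group Vehicle received none. All 5 groups, Vehicle included, spent 24 h in medium with 0.2% BSA. The make-up and dose of each pool were not used here, and a difference between pools belongs to the mixture as a whole. The labels do not state whether the 3 libraries per group have separate animals or cultures behind them, so the p-values measure the spread between these libraries, which may be technical.

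Nuclear receptors are transcription factors, many of which are switched by a small lipid ligand. The RXR proteins are the shared partners that PPAR and retinoic acid receptors need to bind DNA as dimers, whereas HNF4 proteins bind as homodimers and LRH-1, the product of Nr5a2, binds as a monomer. In the intestine, HNF4 proteins maintain the enterocyte programme, PPARα and PPARδ control fatty acid oxidation, retinoic acid receptors read vitamin A status, and LRH-1 is known for crypt cell renewal and local steroid synthesis.

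Total counts ran from 11245807 to 28989526 per library. All 8 epithelial markers (such as Epcam and Cdh1) were detected in every group. The summed level of 10 fibroblast markers was 9.51 to 11.0 CPM in H10, 16.2 to 23.2 in H90, 18.8 to 20.6 in M10 and 19.5 to 24.6 in M90, against 9.50 to 12.7 CPM in Vehicle, where CPM is counts per 10⁶ scaled counts of the library. The summed level of 9 immune markers was at most 5.78 CPM in any library. The liver transcript Mup20 split the libraries across the groups: relative to plain library totals, without TMM scaling, it had 23.0 to 35.9 counts per 10⁶ in 7 libraries (H10, H90 a and Vehicle), and in the remaining 8 (both other H90 libraries, M10 and M90) it had 0.356 to 0.583. The summed level of 16 liver genes was 504 to 657 CPM in H10, 571 to 848 in H90, 257 to 280.3 in M10 and 321 to 376 in M90, against 915 to 1011 CPM in Vehicle, but 1 gene, Cps1, which the intestine also expresses, had 142 to 675 CPM of it. By gene, 1 of the 16 passed as lower for H10, 1 for H90, 11 for M10 and 11 for M90, with median log2 changes of 0.20, -0.56, -1.85 and -1.71 in that order. On plain totals, library H90 a also had 14143 counts per 10⁶ of the ribosomal transcript Rn45s, against 1739 to 3215 in any other library. The part of these transcripts in the members' results was not tested. Library set coincides with group except within H90. A fit with a term for the set rests, for that term, on H90 a against H90 b and H90 c. There the set cannot be told apart from the high Rn45s of H90 a. Values of this fit are given beside the calls it ends. A call could end with or without a smaller change against Vehicle. Nr2f6 in M10 had -0.32 with the term and -0.23 without, and Rara in H90 had 0.12 and 0.26.

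The sequences upstream of 3 receptors are shown because Nr5a2 and Rxra were lower, and Ppara was higher, in all 4 pools. Rara was also higher in all 4, and its 4 windows, none of which held the hexamer described next, are not printed. Each sequence is the 250 bases before a RefSeq start (GRCm38.p6), 5′ to 3′ on the gene's strand. Capitals mark AGGTCA, the hexamer that most nuclear receptors recognise, on either strand (TGACCT when it lies on the other).
Nr5a2 start 1, chr1:136960449-136960698 (minus strand): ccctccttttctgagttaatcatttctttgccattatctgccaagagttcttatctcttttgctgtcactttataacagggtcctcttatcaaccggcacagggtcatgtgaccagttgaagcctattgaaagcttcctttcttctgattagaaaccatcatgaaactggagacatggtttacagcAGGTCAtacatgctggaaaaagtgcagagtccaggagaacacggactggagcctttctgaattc
Nr5a2 start 2, chr1:136953631-136953880 (minus strand): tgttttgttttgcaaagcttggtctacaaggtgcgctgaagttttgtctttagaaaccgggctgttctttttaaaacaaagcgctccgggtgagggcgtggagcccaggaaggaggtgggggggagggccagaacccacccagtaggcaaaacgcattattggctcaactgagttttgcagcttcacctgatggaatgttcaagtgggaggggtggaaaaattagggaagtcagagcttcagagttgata
Rxra start 1, chr2:27676951-27677200 (plus strand): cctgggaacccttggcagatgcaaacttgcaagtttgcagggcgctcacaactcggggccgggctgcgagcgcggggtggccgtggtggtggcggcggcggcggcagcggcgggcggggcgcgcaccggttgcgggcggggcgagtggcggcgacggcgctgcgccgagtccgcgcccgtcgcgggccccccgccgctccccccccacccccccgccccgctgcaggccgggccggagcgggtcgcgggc
Rxra start 2, chr2:27709042-27709291 (plus strand): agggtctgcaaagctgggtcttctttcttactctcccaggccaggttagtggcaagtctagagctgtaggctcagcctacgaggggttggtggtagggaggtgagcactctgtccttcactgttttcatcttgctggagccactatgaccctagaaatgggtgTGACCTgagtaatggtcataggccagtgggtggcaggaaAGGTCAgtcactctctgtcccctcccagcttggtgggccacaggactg
Ppara start 1, chr15:85735526-85735775 (plus strand): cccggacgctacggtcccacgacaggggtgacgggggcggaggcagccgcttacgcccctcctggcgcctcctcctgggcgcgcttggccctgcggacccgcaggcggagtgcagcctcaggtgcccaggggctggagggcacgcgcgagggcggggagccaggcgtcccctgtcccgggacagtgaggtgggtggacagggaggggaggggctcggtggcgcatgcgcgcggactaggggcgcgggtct

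The hexamer was found from -64 to -59 of the first Nr5a2 start, counted from the start site, and at -87 to -82 and -48 to -43 of the second Rxra start. It was absent from the windows before the second Nr5a2 start, the first Rxra start and the Ppara start. Over the 9 members with an entry in the promoter table, 4 of 18 windows held it (the others were the first 2 Pparg starts), beside 14.0% of 32851 windows of the same length. Hnf4g had no entry. None of the 18 windows held the hexamer repeated after 1 base, the direct repeat bound by PPAR and RXR (0.0335% of all windows), CAAAGTCCA, an HNF4 core (0.384%), or CAAGGTCA, an LRH-1 site (1.33%). Both strands were searched, and the direct repeat and the LRH-1 site each contain the hexamer. Base composition differed widely: G and C made up 43.2% of the first Nr5a2 window, 81.2% of the first Rxra window and 76.4% of the Ppara window.

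Per length, the HNF4 pair stood above all other members in every group. In Vehicle, CPM per kb of exon was 291 ± 2.60 for Hnf4a and 161 ± 12.4 for Hnf4g (SD, n = 3), followed by 39.2 ± 1.51 for Rxra, 31.8 ± 2.47 for Nr2f6 and 27.7 ± 0.961 for Ppara. The lower members were Ppard with 17.7 ± 0.430, Rxrb with 14.2 ± 1.13, Pparg with 13.1 ± 1.33, Nr5a2 with 12.6 ± 0.240 and Rara with 9.51 ± 0.641 CPM per kb. In this order the ranges of Rxrb and Pparg, and of Pparg and Nr5a2, overlapped, and the other neighbours did not. In all 4 pools Ppara stood next after the HNF4 pair, with 47.5 ± 1.65 CPM per kb for H10, 41.8 ± 2.22 for H90, 43.0 ± 3.49 for M10 and 55.4 ± 3.85 for M90, above Rxra, and Nr5a2 stood last. Nr5a2 had 8.63 ± 0.235 CPM per kb for H10, 10.7 ± 0.481 for H90, 5.57 ± 0.224 for M10 and 7.87 ± 0.431 for M90. In H90 the ranges of Pparg and Rara, and of Rara and Nr5a2, overlapped. The length was that of all annotated exons of a gene together, which may differ from the transcripts expressed here, and the order depends on it. Without division by length, Rxra stood above Ppara in H90, with 193 ± 2.19 and 160 ± 8.51 CPM, but not in the other pools. Pparg then stood under Nr5a2 in H10, H90 and M90, and the HNF4 pair still stood above all other members.

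**Figure D1:**
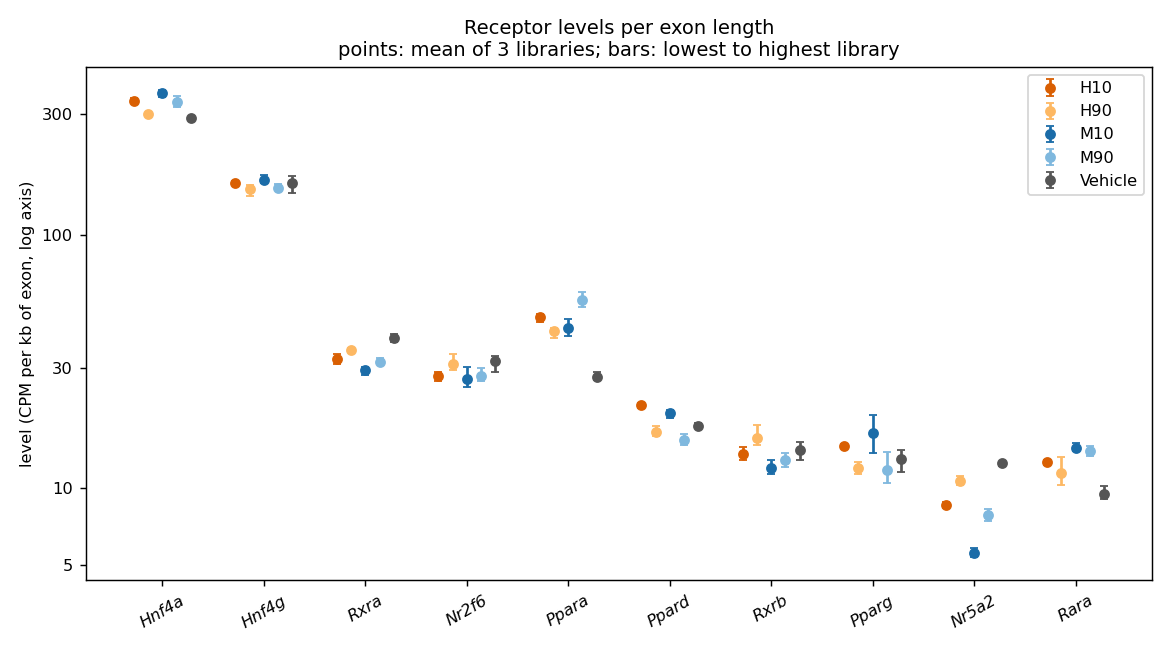
Level of each of the 10 receptors in CPM per kb of exon, on a log axis, by group; points are group means of 3 libraries and bars run from the lowest to the highest library. Hnf4a and Hnf4g lie at the top in every group, while Ppara has 55.4 ± 3.85 in M90 and 27.7 ± 0.961 in Vehicle.

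Against Vehicle, 7 of 10 receptors passed the test in H10 (4 higher, 3 lower), 4 in H90 (2 and 2), 9 in M10 (5 and 4) and 7 in M90 (3 and 4). The test was edgeR's quasi-likelihood test with p adjusted over all genes by Benjamini-Hochberg, at 0.05. Of all tested genes, 48.5% passed for H10, 21.6% for H90, 64.5% for M10 and 54.7% for M90, so passing was common among genes in general. By direction, 24.0% of genes passed as higher and 24.5% as lower in H10. The shares were 11.7% and 9.86% in H90, 31.2% and 33.3% in M10, and 26.2% and 28.5% in M90. For the mean of the 4 pools 6 of 10 passed (3 and 3), beside 57.9% of genes, and the members' median log2 change was 0.0062 beside -0.014 over all genes. With only 10 members, these shares are not read as a property of the receptors. In bulk RNA, fewer cells of a type and less RNA per cell cannot be told apart. The scale matters for small changes: scaling by library size alone in place of TMM shifted the median of all genes by -0.13 for H10, -0.037 for H90, -0.26 for M10 and -0.15 for M90 (log2).

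**Figure D2:**
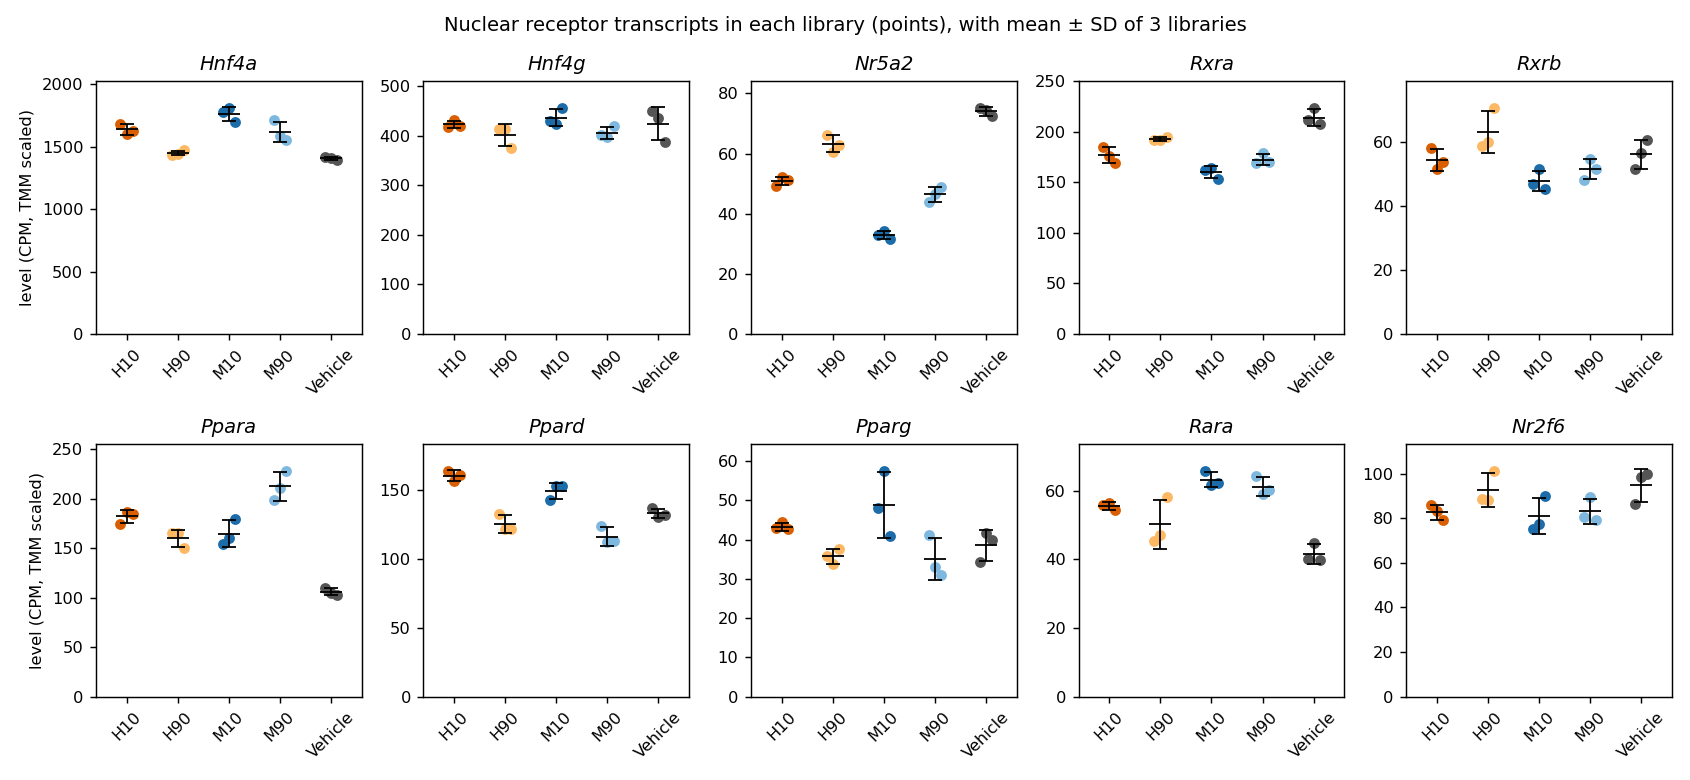
TMM-scaled CPM of each receptor in each of the 15 libraries (points), with the mean and SD of each group of 3; each panel has its own axis from 0. Ppara lies at 199, 210.4 and 228 CPM in M90 and 110.2, 105 and 103 CPM in Vehicle, and Nr5a2 at 32.8, 34.3 and 31.6 CPM in M10 and 75.1, 74.6 and 72.4 CPM in Vehicle.

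Nr5a2 (chr1:136842571-136960448, minus strand; all gene positions are GRCm38), which encodes LRH-1, fell in all 4 pools. Nr5a2 had 49.3, 52.0 and 51.3 CPM in H10, 66.3, 60.6 and 62.8 CPM in H90, 32.8, 34.3 and 31.6 CPM in M10 and 43.9, 46.4 and 48.9 CPM in M90, against 75.1, 74.6 and 72.4 CPM in Vehicle. No pool library overlapped a Vehicle library, and M10 was the lowest group. The log2 change against Vehicle was -0.54 ± 0.0722 (SE, adjusted p = 6.13e-08) in H10, -0.23 ± 0.0720 (SE, adjusted p = 0.0204) in H90, -1.17 ± 0.0739 (SE, adjusted p = 1.36e-16) in M10 and -0.67 ± 0.0724 (SE, adjusted p = 4.32e-10) in M90. In M10 its level was 0.444 of that in Vehicle. The H90 call was lost without Vehicle a, Vehicle b or H90 b, at -0.22 to -0.20 (adjusted p = 0.0617 to 0.0857), and with the library set term, at -0.16 (adjusted p = 0.394). The other 3 calls held in every alternative run.

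Proliferation and crypt markers moved with Nr5a2. The summed level of 25 proliferation genes was 468 to 494 CPM in H10, 1487 to 1693 in H90, 174 to 184 in M10 and 453 to 484 in M90, against 2258 to 2441 CPM in Vehicle. The summed level of 14 crypt stem cell genes, which include Lgr5 and Olfm4, was 293 to 322 CPM in H10, 503 to 516 in H90, 291 to 347 in M10 and 276 to 301 in M90, against 687 to 734 CPM in Vehicle. The order of the groups by proliferation sum, M10 lowest, then M90 and H10 near each other, then H90 and Vehicle, was close to their order by Nr5a2. The crypt sum did not keep this order, with a median of 321 CPM in M10, 299 in H10 and 281 in M90. The part of cell composition in the Nr5a2 result was not tested.

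Rxra (chr2:27676440-27762957, plus strand), the main RXR of this epithelium by level, also fell in all 4 pools, by less. Rxra had 185, 176 and 169 CPM in H10, 192, 191 and 195 CPM in H90, 162, 164 and 153 CPM in M10 and 169, 179 and 169.7 CPM in M90, against 211, 223 and 208 CPM in Vehicle. The highest pool library, in H90, lay under the lowest Vehicle library. The log2 change against Vehicle was -0.28 ± 0.0503 (SE, adjusted p = 1.45e-05) in H10, -0.15 ± 0.0504 (SE, adjusted p = 0.0260) in H90, -0.42 ± 0.0503 (SE, adjusted p = 2.72e-09) in M10 and -0.31 ± 0.0502 (SE, adjusted p = 1.86e-06) in M90. The H90 call was lost without Vehicle b, H90 a or H90 b, at -0.15 to -0.12 (adjusted p = 0.0559 to 0.146), in the fit of H90 and Vehicle alone, at -0.14 (adjusted p = 0.0742), and with the library set term, at -0.16 (adjusted p = 0.188).

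Rxrb (chr17:34031812-34038399, plus strand), a second RXR, passed only in M10. Rxrb had 58.2, 51.6 and 53.7 CPM in H10, 58.8, 60.0 and 70.7 CPM in H90, 46.9, 51.5 and 45.4 CPM in M10 and 48.3, 54.7 and 51.7 CPM in M90, against 51.6, 56.5 and 60.6 CPM in Vehicle. M10 was the only pool whose range lay apart from Vehicle. Its log2 change there was -0.23 ± 0.0824 (SE, adjusted p = 0.0137), and the call was lost without Vehicle c or M10 c, at -0.20 to -0.18 (adjusted p = 0.0565 to 0.0903). The 95% intervals in the other pools were -0.22 to 0.12 in H10, -0.0093 to 0.33 in H90 and -0.29 to 0.040 in M90. With scaling by library size, M90 passed at -0.28 (adjusted p = 0.00389). Rxra made up 70.2 ± 0.882% of the summed level per kb of both genes for H10, 69.0 ± 1.94% for H90, 70.8 ± 0.864% for M10 and 70.9 ± 0.786% for M90, against 73.5 ± 1.86% in Vehicle (SD, n = 3).

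Ppara (chr15:85734983-85802819, plus strand), the receptor that drives genes of fatty acid oxidation, rose in all 4 pools and was the member with the largest increase. Ppara had 175, 187 and 184 CPM in H10, 165, 165 and 150.3 CPM in H90, 154, 161 and 179.8 CPM in M10 and 199, 210.4 and 228 CPM in M90, against 110.2, 105 and 103 CPM in Vehicle. Every pool library lay above every Vehicle library, and M90 was the highest group. The log2 change against Vehicle was 0.78 ± 0.0596 (SE, adjusted p = 7.80e-14) in H10, 0.60 ± 0.0600 (SE, adjusted p = 5.98e-10) in H90, 0.64 ± 0.0595 (SE, adjusted p = 7.63e-12) in M10 and 1.0 ± 0.0595 (SE, adjusted p = 4.92e-17) in M90, which is 1.72-fold, 1.51-fold, 1.55-fold and 2.01-fold. All 4 calls held in every alternative run.

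Ppard (chr17:28232700-28301474, plus strand), the broadly expressed PPAR, rose in both 10% pools, though in M10 the direction turned with library size scaling, and fell in M90. Ppard had 164, 156 and 161 CPM in H10, 133, 121 and 122 CPM in H90, 143, 153 and 153 CPM in M10 and 124, 112 and 113 CPM in M90, against 137, 131 and 132 CPM in Vehicle. Its ranges lay apart from Vehicle in H10, M10 and M90. In H10 it had a log2 change against Vehicle of 0.27 ± 0.0553 (SE, adjusted p = 8.83e-05). The change was 0.17 ± 0.0553 (SE, adjusted p = 0.00819) for M10 and -0.20 ± 0.0557 (SE, adjusted p = 0.00319) for M90. In H90 the 95% interval was -0.20 to 0.030. With scaling by library size the M10 change was -0.096 (adjusted p = 0.123), and the M90 call was lost with the library set term, at -0.069 (adjusted p = 0.640).

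Pparg (chr6:115360951-115490399, plus strand), best known from fat cells, had the highest coefficient of variation of any member in any group, 17.0% in M10. Pparg had 42.8, 44.4 and 42.6 CPM in H10, 35.7, 33.7 and 37.7 CPM in H90, 47.9, 57.5 and 40.9 CPM in M10 and 41.2, 33.0 and 31.1 CPM in M90, against 34.2, 41.8 and 39.8 CPM in Vehicle. It passed in M10 alone, where the M10 and Vehicle ranges overlapped, with a log2 change against Vehicle of 0.34 ± 0.106 (SE, adjusted p = 0.00595). This call was lost without Vehicle a or M10 b, at 0.20 to 0.26 (adjusted p = 0.0531 to 0.107), with scaling by library size, at 0.072 (adjusted p = 0.547), and with the library set term, at 0.34 (adjusted p = 0.164). The 95% intervals were -0.056 to 0.38 in H10, -0.34 to 0.10 in H90 and -0.36 to 0.073 in M90. M90 passed as lower without M90 a, at -0.27 (adjusted p = 0.0422), and with scaling by library size, at -0.30 (adjusted p = 0.0149).

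As a share of the summed PPAR level per kb, Ppara had 56.8 ± 1.04% for H10, 59.2 ± 1.74% for H90, 54.1 ± 3.36% for M10 and 66.9 ± 3.55% for M90, against 47.3 ± 1.54% in Vehicle (SD, n = 3). The share of Ppard was 18.7 ± 1.20% in M90, its lowest, and 30.3 ± 0.788% in Vehicle, its highest. These shares do not depend on the scaling between libraries, since all 3 genes come from the same library. They do depend on the exon lengths. Without division by length, Ppard stood above Ppara in Vehicle, with 133 ± 3.23 and 106 ± 3.69 CPM. In all 4 pools Ppara stood above Ppard with or without the division.

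**Figure D3:**
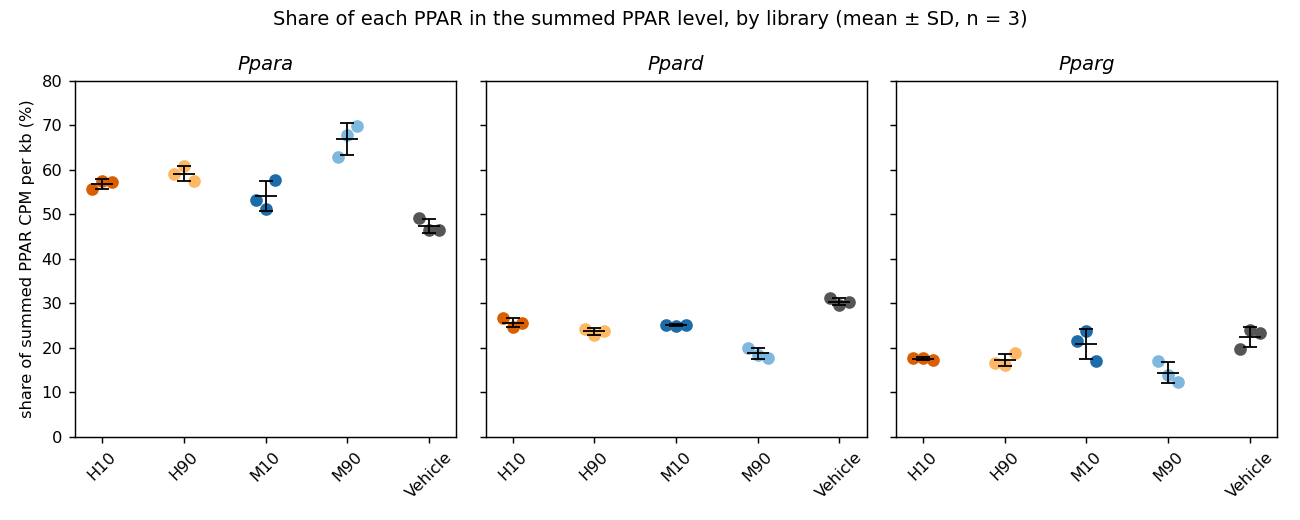
Share of Ppara, Ppard and Pparg in their summed CPM per kb (%), by library (points) with the mean and SD of each group of 3. The Ppara share is 66.9 ± 3.55% in M90 and 47.3 ± 1.54% in Vehicle.

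Hnf4a (chr2:163506808-163572910, plus strand), the most abundant member, rose slightly in 3 pools. Hnf4a had 1686, 1604 and 1628 CPM in H10, 1437, 1443 and 1471 CPM in H90, 1781, 1810.1 and 1697 CPM in M10 and 1714, 1589 and 1556 CPM in M90, against 1416, 1412 and 1393 CPM in Vehicle. All pool libraries lay above the Vehicle libraries. The log2 change against Vehicle was 0.22 ± 0.0399 (SE, adjusted p = 1.47e-05) in H10, 0.33 ± 0.0399 (SE, adjusted p = 5.03e-09) in M10 and 0.20 ± 0.0399 (SE, adjusted p = 4.52e-05) in M90, and the 95% interval in H90 was -0.037 to 0.12. These sizes depended on the scaling: by library size, the change was 0.061 (adjusted p = 0.146) in M10 and 0.051 (adjusted p = 0.246) in M90. Hnf4g (chr3:3508030-3658052, plus strand), its paralogue in the gut, passed in no pool. Hnf4g had 418, 431 and 419 CPM in H10, 413, 414 and 375 CPM in H90, 430.1, 423 and 456 CPM in M10 and 400.4, 397 and 419 CPM in M90, against 449.8, 435 and 387 CPM in Vehicle. The ranges of every pool overlapped Vehicle. Its 95% intervals were -0.11 to 0.095 in H10, -0.18 to 0.020 in H90, -0.060 to 0.14 in M10 and -0.16 to 0.035 in M90. Without Vehicle c it passed as lower in H90, at -0.14 (adjusted p = 0.0327), and in M90, at -0.13 (adjusted p = 0.0285). With scaling by library size it passed as lower in H10, at -0.14 (adjusted p = 0.0232), M10, at -0.22 (adjusted p = 1.91e-04), and M90, at -0.22 (adjusted p = 3.98e-04).

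Rara (chr11:98927818-98974942, plus strand), a retinoic acid receptor, rose in all 4 pools. Rara had 55.9, 56.3 and 54.2 CPM in H10, 45.2, 47.0 and 58.2 CPM in H90, 65.7, 61.5 and 62.2 CPM in M10 and 64.3, 58.9 and 60.2 CPM in M90, against 40.2, 44.7 and 39.6 CPM in Vehicle. Every pool library lay above the highest Vehicle library, in H90 by a small margin. The log2 change against Vehicle was 0.41 ± 0.0824 (SE, adjusted p = 5.83e-05) in H10, 0.26 ± 0.0836 (SE, adjusted p = 0.0227) in H90, 0.60 ± 0.0818 (SE, adjusted p = 4.47e-08) in M10 and 0.55 ± 0.0820 (SE, adjusted p = 3.93e-07) in M90. The H90 call was lost without Vehicle a, Vehicle c or H90 c, at 0.15 to 0.24 (adjusted p = 0.0832 to 0.237), with limma-voom, at 0.21 (adjusted p = 0.0686), in the fit of H90 and Vehicle alone, at 0.27 (adjusted p = 0.0563), and with the library set term, at 0.12 (adjusted p = 0.622). The set term also ended the M90 call, at 0.34 (adjusted p = 0.0649).

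Nr2f6 (chr8:71374123-71381960, minus strand), an orphan receptor of the COUP-TF family, passed as lower in 3 pools. Nr2f6 had 85.8, 83.2 and 79.1 CPM in H10, 88.8, 88.0 and 101 CPM in H90, 75.3, 77.6 and 90.0 CPM in M10 and 80.4, 89.6 and 79.3 CPM in M90, against 86.3, 98.5 and 99.6 CPM in Vehicle. The pool ranges overlapped Vehicle in H90, M10 and M90. The log2 change was -0.20 ± 0.0736 (SE, adjusted p = 0.0230) in H10, -0.23 ± 0.0734 (SE, adjusted p = 0.00604) in M10 and -0.19 ± 0.0734 (SE, adjusted p = 0.0254) in M90, and the 95% interval in H90 was -0.19 to 0.11. The H10 call was lost without Vehicle b, Vehicle c or H10 c, at -0.17 to -0.16 (adjusted p = 0.0925 to 0.108). The M90 call was lost without Vehicle b, Vehicle c, M90 a or M90 c, at -0.17 to -0.16 (adjusted p = 0.0870 to 0.109), and with DESeq2, at -0.17 (adjusted p = 0.0656). The M10 call was lost without M10 a, at -0.18 (adjusted p = 0.0502). With the library set term the values were -0.32 (adjusted p = 0.0506) in M10 and -0.28 (adjusted p = 0.112) in M90. The gene is uncertain for another reason: 54.37% of its exon bases are shared with Ocel1 on the opposite strand, and the strand setting of the counting was not given in the sources used here. Ocel1 had 9.51 to 15.8 counts per 10⁶ of the plain library totals, without TMM scaling. No other member shares exon bases with another gene.

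**Figure D4:**
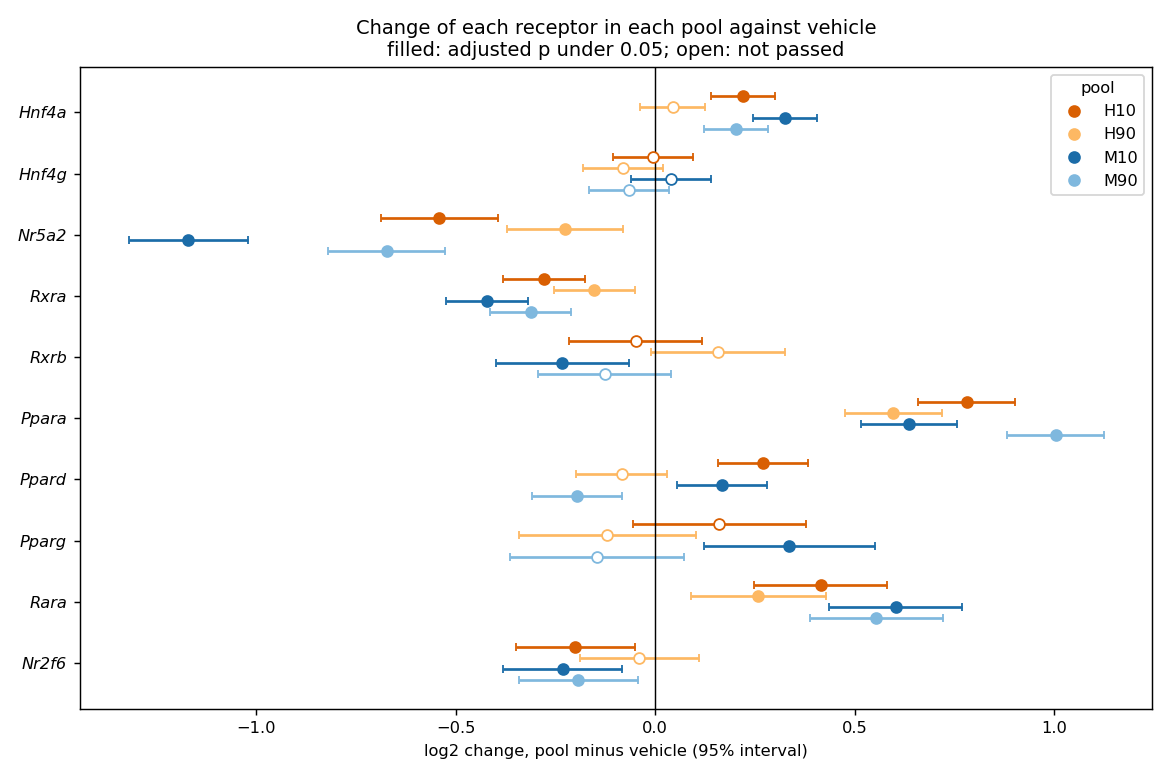
log2 change of each receptor in H10, H90, M10 and M90 against Vehicle with 95% intervals from edgeR; filled points have adjusted p under 0.05, open points do not. Ppara is at 1.0 in M90 and Nr5a2 at -1.17 in M10.

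Pools with 90% of 12α-hydroxylated bile acids were then compared with pools with 10%, within each species model. In H90 against H10, 7 of 10 receptors passed (3 higher, 4 lower), beside 36.6% of genes (18.2% higher, 18.4% lower). In M90 against M10, 5 of 10 passed (2 higher, 3 lower), beside 41.2% (21.3% higher, 20.0% lower). Nr5a2 was higher in both 90% pools, with log2 differences of 0.31 ± 0.0732 (SE, adjusted p = 7.03e-04) in the human model and 0.50 ± 0.0748 (SE, adjusted p = 9.87e-07) in the mouse model. Ppard was lower in both, with -0.35 ± 0.0559 (SE, adjusted p = 2.78e-06) and -0.36 ± 0.0555 (SE, adjusted p = 1.35e-06) in the same order. These 4 calls held in every alternative run. Pparg was lower in M90 than M10, with -0.48 ± 0.106 (SE, adjusted p = 3.71e-04), and lower in H90 than H10, with -0.28 ± 0.108 (SE, adjusted p = 0.0411). Its M90 and M10 ranges overlapped, with 41.2 CPM in M90 a and 40.9 CPM in M10 c. The human-model call for Pparg was lost without H10 a, H10 b, H10 c, H90 a or H90 b, at -0.29 to -0.24 (adjusted p = 0.0732 to 0.137), with library size scaling, at -0.19 (adjusted p = 0.168), DESeq2, at -0.28 (adjusted p = 0.0543), and the library set term, at -0.28 (adjusted p = 0.211).

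Hnf4a was lower in H90 than H10, with -0.18 ± 0.0399 (SE, adjusted p = 4.93e-04), and in M90 than M10, with -0.12 ± 0.0398 (SE, adjusted p = 0.0125). The M90 and M10 ranges overlapped. Scaling by library size ended both calls, at -0.084 (adjusted p = 0.0739) and -0.0099 (adjusted p = 0.856), and the mouse-model call was lost without M10 b, M90 b or M90 c, at -0.11 to -0.094 (adjusted p = 0.0708 to 0.105). Rxra and Rxrb were higher in H90 than H10 by 0.13 ± 0.0507 (SE, adjusted p = 0.0485) and 0.21 ± 0.0830 (SE, adjusted p = 0.0477). Both calls lay at the threshold. Rxra lost its call without any 1 of 12 libraries (all but Vehicle c, H10 a and M10 c), at 0.094 to 0.13 (adjusted p = 0.0526 to 0.232). Rxrb lost its call without any 1 of 8 libraries (Vehicle b, H10 b, H10 c, H90 c, M10 a, M90 a, M90 b or M90 c), at 0.12 to 0.21 (adjusted p = 0.0503 to 0.284). With the library set term the values were 0.12 (adjusted p = 0.240) for Rxra and 0.11 (adjusted p = 0.537) for Rxrb, and without the low-count filter 0.12 (adjusted p = 0.109) and 0.20 (adjusted p = 0.0505). Rxrb had 0.21 (adjusted p = 0.0524) with DESeq2 and 0.19 (adjusted p = 0.0714) with limma-voom.

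Ppara was the only member that passed the edgeR test of whether the 90%-to-10% difference differed between the species models. It was higher in M90 than M10, with 0.37 ± 0.0584 (SE, adjusted p = 2.53e-06), and lower in H90 than H10, with -0.18 ± 0.0591 (SE, adjusted p = 0.0131). The interaction, the mouse difference minus the human difference, was 0.55 ± 0.0831 (SE, adjusted p = 7.10e-06) by edgeR, where 14.8% of genes passed (7.85% positive, 6.92% negative), and 9 of 10 members did not. It ranged from 0.50 to 0.62 when each library was left out and from 0.51 to 0.57 under the other alternatives, passing in all. The human-model side was less firm. It was lost without H10 b or H90 c, at -0.16 to -0.14 (adjusted p = 0.0644 to 0.0748), with library size scaling, at -0.090 (adjusted p = 0.259), and with the library set term, at -0.14 (adjusted p = 0.229).

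**Figure D5:**
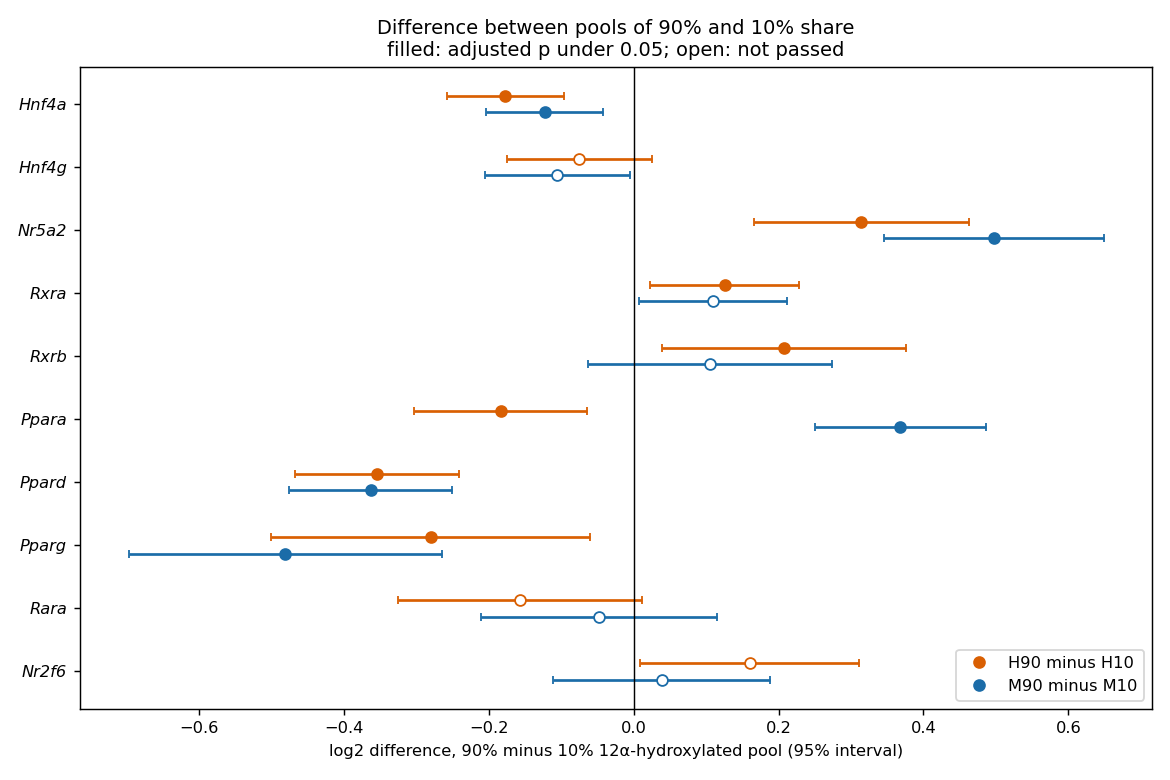
log2 difference between the 90% and the 10% pool of each species model for each receptor, with 95% intervals from edgeR; filled points have adjusted p under 0.05, open points do not. Ppara is at 0.37 for M90 minus M10 and -0.18 for H90 minus H10, and Ppard is at -0.36 and -0.35.

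Between species models, 4 of 10 receptors passed in M10 against H10 (1 higher, 3 lower), beside 36.3% of genes (18.2% higher, 18.1% lower), and 6 of 10 in M90 against H90 (3 higher, 3 lower), beside 38.8% (19.2% higher, 19.5% lower). Nr5a2 was lower in the mouse model at both shares, with log2 differences of -0.63 ± 0.0747 (SE, adjusted p = 1.27e-08) for M10 against H10 and -0.45 ± 0.0734 (SE, adjusted p = 5.05e-06) for M90 against H90. Ppara was higher in M90 than H90, with 0.41 ± 0.0589 (SE, adjusted p = 5.51e-07). These 3 calls held in every alternative run. Rxra was lower in M90 than H90, with -0.16 ± 0.0506 (SE, adjusted p = 0.0108), a call lost without M90 a, at -0.14 (adjusted p = 0.0509). It was also lower in M10 than H10, with -0.14 ± 0.0505 (SE, adjusted p = 0.0238), lost without H10 a or M10 c, at -0.12 to -0.11 (adjusted p = 0.109 to 0.151), and with the set term, at -0.16 (adjusted p = 0.271). Rxrb was lower in M90 than H90, with -0.28 ± 0.0829 (SE, adjusted p = 0.00567), lost without H90 c, at -0.20 (adjusted p = 0.0594).

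Rara was higher in M90 than H90, with 0.30 ± 0.0824 (SE, adjusted p = 0.00384), which did not pass with library size scaling, at 0.18 (adjusted p = 0.0710), or with the set term, at 0.22 (adjusted p = 0.0513). Hnf4a was higher in M90 than H90, with 0.16 ± 0.0399 (SE, adjusted p = 0.00144), and 0.045 (adjusted p = 0.355) with library size scaling. In M10 against H10, Hnf4a had 0.10 ± 0.0398 (SE, adjusted p = 0.0367), which turned to -0.029 (adjusted p = 0.572) with library size scaling. That call was lost without H10 b, H10 c, M10 a or M10 b, at 0.085 to 0.099 (adjusted p = 0.104 to 0.158), without the low-count filter, at 0.10 (adjusted p = 0.0606), and with the set term, at 0.085 (adjusted p = 0.464). Ppara had -0.15 ± 0.0586 (SE, adjusted p = 0.0498) in M10 against H10, at the threshold, and the M10 and H10 ranges overlapped. This Ppara call was lost without any 1 of 7 libraries (Vehicle b, H10 b, H10 c, H90 b, M10 a, M10 b or M90 b), at -0.15 to -0.099 (adjusted p = 0.0505 to 0.260). It was also lost with RLE scaling, at -0.13 (adjusted p = 0.0773), with DESeq2, at -0.13 (adjusted p = 0.103), and with the set term, at -0.082 (adjusted p = 0.673).

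Genes whose pattern was most like a member's were taken by Pearson's r of log2 CPM over the 15 libraries, among 10544 genes, with no test. The libraries share their groups, so r mainly follows the group means. Nr5a2 was closest to Ptcd3 (0.993), Ccnb1 (0.989) and Cdc20 (0.988). Of these, Ccnb1 and Cdc20 act in mitosis. Ppara was closest to Aldh9a1 (0.987), Tsc22d1 (0.983) and Hadhb (0.978), of which Hadhb is a subunit of the mitochondrial trifunctional protein of fatty acid oxidation. Rxra was closest to Auts2 (0.972), Hes1 (0.967) and Lrp4 (0.962), of which Hes1 is a Notch target. Hnf4a was closest to Npc1 (0.988), Ticam1 (0.983) and Adm (0.982), of which Npc1 exports cholesterol from lysosomes. Rara was closest to Rce1 (0.974), Dopey2 (0.966) and Apba3 (0.965). The values were lower for Hnf4g, closest to Bmpr2 (0.877), Usp9x (0.863) and Lemd3 (0.849), Rxrb, closest to Eif2b5 (0.897), Ddx55 (0.890) and Wdr91 (0.887), and Ppard, closest to Sesn2 (0.906), Eif3c (0.906) and Arl1 (0.889). Genes close to Pparg included Tsc22d4 (0.882) and Stom (0.860), and Nr2f6 was closest to Ankrd39 (0.915), Snhg6 (0.887) and Gemin2 (0.873).

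Genes known as targets of the members, and genes of retinoic acid and steroid pathways, were read out for the mean of the 4 pools against Vehicle. In this comparison 27.7% of all genes passed as higher and 30.3% as lower, and the median was -0.014. The lists described here and below were chosen with earlier results of these data known. Their counts are therefore no independent test of the activity of a receptor. The PPAR target list had 30 of 30 tested genes higher and 0 lower, with a median log2 change of 1.07 (29, 0 and 0.92 with library size scaling). Among its members with the smallest adjusted p were Creb3l3, a transcription factor of lipid metabolism, with 2.29 ± 0.0501 (SE), Hsd17b4, of peroxisomal oxidation, with 1.47 ± 0.0442, and the carnitine carrier gene Slc25a20 with 1.35 ± 0.0487. The list's median was 0.92 for H10, 0.71 for H90, 1.19 for M10 and 1.48 for M90. The list of HNF4-dependent enterocyte genes had 28 of 30 tested genes higher and 0 lower, with a median log2 change of 0.59, including Mttp with 1.10 ± 0.0343, Acsl5 with 0.97 ± 0.0360, Apoc2 with 2.03 ± 0.0820 and Cdhr2 with 0.88 ± 0.0398. With library size scaling this list had 25 higher and 1 lower, with a median of 0.44. In H90, with TMM scaling, this list had 16 higher and 3 lower. General enterocyte markers moved with it: the sum of 20 was 28000.4 to 28497 CPM in H10, 19513 to 20642 in H90, 43097 to 44605 in M10 and 30873 to 32312 in M90, against 17766 to 20791 CPM in Vehicle. The part of these markers in the results of this list and of the PPAR target list was not tested. Any gene on both the enterocyte and the HNF4-dependent list was kept in both, so their movement together may not be a separate observation.

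The retinoic acid pathway list had 9 of 12 tested genes higher and 2 lower, with a median log2 change of 0.70, led by the retinol-binding protein gene Rbp2 with 1.68 ± 0.0597, Tgm2 with 0.96 ± 0.0449 and the retinol dehydrogenase genes Rdh10 with 1.01 ± 0.0716 and Rdh7 with 0.68 ± 0.0675. With library size scaling this list had 8 higher and 3 lower, with a median of 0.55. The list of LRH-1 target and steroidogenic genes was split, with 4 of 12 tested genes higher and 4 lower, with a median log2 change of 0.11. The cyclin genes Ccnd1, with -2.00 ± 0.0671, and Ccne1, with -1.97 ± 0.190, fell, while Nr0b2, with 5.72 ± 0.346, and the sterol exporter gene Abcg5, with 0.43 ± 0.0395, rose. Nr0b2, which encodes SHP, is also a target of FXR, and the cyclins also mark cycling cells.

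Among other nuclear receptors, the list had 13 of 24 tested genes higher and 7 lower, with a median log2 change of 0.16. The xenobiotic receptor Nr1i2 (PXR) rose by 0.80 ± 0.0454 (log2, SE), the clock receptor Nr1d1 by 0.86 ± 0.0582, the FXR gene Nr1h4 by 0.41 ± 0.0428 and Vdr by 0.23 ± 0.0332. With library size scaling the split was 10 higher and 8 lower. Coregulators had 4 of 24 tested genes higher and 7 lower, with a median log2 change of -0.038, with 4 and 13 under library size scaling. Prmt1, with -1.25 ± 0.0784, Med14, with -0.70 ± 0.0655, Pprc1, with -0.82 ± 0.0776, and Ncoa1, with -0.62 ± 0.0595, fell, and Ppargc1a rose by 0.36 ± 0.0940. Intestinal transcription factors had 11 of 24 tested genes higher and 8 lower, with a median log2 change of 0.043, with 8 and 9 under library size scaling. The gene with the smallest adjusted p on this list was Creb3l3, also on the PPAR target list, which rose. The caudal factor genes Cdx1, with -0.76 ± 0.0440, and Cdx2, with -0.30 ± 0.0393, fell, as did Klf5, with -0.54 ± 0.0343, and the splicing factor gene Esrp1, with -0.63 ± 0.0455.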

How the data were processed

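Poly-A RNA of 15 organoid libraries was sequenced from TruSeq preparations, per the labels' protocols. The authors deposited raw read counts per gene symbol, made with bcl2fastq 2.17, STAR 2.5.2b and featureCounts 1.5.0-p3 on mm10 (GRCm38), per the submitters' processing notes. Annotation, strand setting and handling of multimapping reads were not given in the sources used here. After filterByExpr and TMM scaling, genes were tested with edgeR 4.0.16 (robust quasi-likelihood, two-sided, 5 group means, 10 residual degrees of freedom) in R 4.3.3. The test also borrows the spread across genes, so prior and residual degrees of freedom together had a median of 35.9. The p-values were adjusted over all 13159 tested genes. Exon lengths came from GENCODE (GRCm38). The pipeline was tested on simulated data in which few genes changed, in H10 only. Many genes passed in the real pools, so that test does not bear on the choice of scaling. Members and lists were chosen with earlier results of these data known. Named genes were the members, the 3 most alike genes per member, up to 4 genes per list with the smallest adjusted p, and 8 further genes listed by symbol, of which some are not reported here. Mup20, Rn45s and Ocel1 were added outside this rule, with their values already known. Alternatives were other scalings and filters, DESeq2 1.42.0, limma 3.58.1 (voom), the groups of a contrast alone, a replicate block, a library set term and leaving out each library. Figures used python 3.11.15 and matplotlib 3.10.9.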

Additional observations from a re-analysis of the deposited data

Results flagged for a closer look

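The difference between the 90% and the 10% pool differed between the mouse and human models for Ppara. The interaction was 0.55 on the log2 scale (adjusted p = 7.10e-06, edgeR's interaction test over all genes). Ppara was higher in M90 than M10, at 199, 210.4 and 228 CPM in M90 against 154, 161 and 179.8 CPM in M10. It was lower in H90 than H10, at 165, 165 and 150.3 CPM in H90 against 175, 187 and 184 CPM in H10.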

How the results depend on the processing

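The alternatives were followed for 73 member results. Against Vehicle, by pool and for the mean of the pools, these were all members. Between pools and for the interaction, they were only the members that passed. Of the 73, 56 passed the test, a count raised by this choice and not a pass rate. The sign of results between pools that had not passed was not followed. Of the 56, 2 reversed under an alternative, both with library size scaling. These were Ppard in M10 against Vehicle, at -0.096, and Hnf4a in M10 against H10, at -0.029. Results against Vehicle that had not passed also changed sign. Hnf4g in H10 was 0.0022 with RLE scaling and 0.0022 with DESeq2. With library size scaling, Hnf4g in M10 was -0.22, and for the mean of the pools Ppard was -0.11 and Pparg -0.087. With the library set term, Hnf4g was 0.0013 in M90 and 0.016 for the mean of the pools. Leaving out each library, Hnf4g ranged over -0.067 to 0.038 in H10, -0.023 to 0.080 in M10 and -0.090 to 0.016 for the mean of the pools, Rxrb over -0.10 to 0.0068 in H10 and Pparg over -0.018 to 0.12 for the mean of the pools. The reversals with library size scaling have the size of the shift that this scaling gives the median of all genes, -0.26 in M10, -0.13 in M10 against H10 and -0.15 for the mean of the pools. The cause of the other reversals was not tested.

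The members called in H90 against Vehicle were 2 in the fit of these groups alone, 1 with the library set term and 2 to 4 without each library. With the set term, 1069 genes were called in H90 against Vehicle in place of 2840, 3958 genes and 4 members in M90 against Vehicle in place of 7199 and 7, 4 members in place of 7 in H90 against H10, and 2025 genes and 1 member in M10 against H10 in place of 4779 and 4. Without each library, 3 to 7 members were called in H90 against H10 and 2 to 5 in M10 against H10. For the mean of the pools, Hnf4a was 0.052 (adjusted p = 0.128) with library size scaling. Nr2f6 was -0.22 (adjusted p = 0.0561) with the set term and -0.14 to -0.13 (adjusted p = 0.0918 to 0.103) without Vehicle b or Vehicle c. The mean of the pools uses all 15 libraries, so it has no fit of its groups alone.

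The replicate block (letters a, b and c) changed no call of a member: for Ppara in M90 against Vehicle it gave 1.0 (adjusted p = 8.72e-18). Deviations of libraries with the same letter correlated at -0.0282 to 0.0793 and of other letters at -0.0582 to 0.0437, so the letters were not treated as pairs. For 10 of 15 libraries the best match in another group had the same letter, although more of the candidates had another letter. This is a hint of pairing from the data and not from the design. Counting depth was ample for the members, whose lowest count in any library was 445.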

Other observations

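Markers of secretory cells (goblet, Paneth, enteroendocrine and tuft), taken as 1 list, were mostly higher in the pools. For the mean of the 4 pools against Vehicle the list had 20 of 23 tested genes higher and 2 lower, with a median log2 change of 0.90. Of all genes, 27.7% passed as higher and 30.3% as lower there. The genes with the smallest adjusted p were of goblet and enteroendocrine cells, and the cell types were not read out separately. The goblet cell gene Zg16 had a log2 change of 3.00 ± 0.0564 (SE), the goblet cell gene Tff3 had 1.59 ± 0.0549, and the hormone genes Cck and Gcg had 1.32 ± 0.0429 and 1.24 ± 0.0446. The summed level of the 23 genes was 6018 to 6291 CPM in H10, 3929 to 4172 in H90, 9785 to 10689 in M10 and 5958 to 6620.1 in M90, against 2259.7 to 2420.1 CPM in Vehicle. The crypt gene Olfm4 had -6.27 ± 0.139 and the Wnt target Axin2 had -2.74 ± 0.0886 for the same comparison.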
